A study of Rattus norvegicus with 8 samples.

Results

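The genes described here encode the subunits, assembly chaperones, activators and inhibitor of the proteasome, measured in H9c2 cells after OxPAPC or vehicle. Members were the protein-coding genes of the deposited count table whose symbol begins with Psma to Psmg followed by a digit, together with Pomp, which gave 51 of 40994 genes. Of the 51, 49 encode proteasome proteins, and Psmc3ip and Psme3ip1 match by name only: their products are named for binding a subunit and are no part of the particle. The genes were chosen by name, but the family was proposed with the difference between OxPAPC and vehicle already known. That difference is therefore given as a description, and nothing is inferred from how many members moved.

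H9c2 is a line of myoblasts from rat heart, and the labels give it no genetic modification. OxPAPC is palmitoyl-arachidonoyl-phosphatidylcholine after oxidation, a mix of oxidized phospholipids of the sort found in damaged membranes and lipoproteins. One group of 4 libraries came from cells kept for 6 h with OxPAPC at 100 µg/ml in culture medium, and the other group of 4 came from cells given vehicle, whose makeup the labels do not state. Both groups used cells of passage 6, carry the same batch date, and keep the sample numbers of the study, 1, 8, 15 and 22 for vehicle and 2, 9, 16 and 23 for OxPAPC. Separate cultures are not stated in the labels, so the test measured the spread between these samples, which may be technical.

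The proteasome is the barrel-shaped protease that degrades proteins tagged with ubiquitin. Its 20S core is a stack of alpha rings, which gate the channel, and beta rings, which hold the catalytic sites. The 19S cap consists of a base with a ring of ATPases that unfold the substrate and of a lid that removes ubiquitin. In mammals, interferon exchanges the catalytic beta subunits for immune forms, and the transcription factor NRF1 raises the standard genes together when proteasome activity is short.

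Libraries held 15.4 to 21.7 M counts, and 13206 genes passed the filter on low counts. The labelled myoblast identity was read on marker genes. The 6 skeletal myoblast markers summed to 379 to 397 counts per M counts (CPM) in the vehicle libraries and 321 to 346 CPM in the OxPAPC libraries, with Myog at 95.1 ± 5.67 and 39.96 ± 1.46 CPM (SD, n = 4), while Myf5 and Pax7 were at or near 0. In vehicle and OxPAPC libraries Cdh15 stood at 194 ± 7.15 and 186 ± 6.48 CPM, and Myod1 at 85.9 ± 3.55 and 94.1 ± 3.85 CPM. The 5 fibroblast markers summed to 67416 to 71213 CPM in vehicle and 64396 to 69297 CPM in OxPAPC libraries, nearly all of it collagen I. Pdgfra, of the same list, was near 0, at 0.353 ± 0.286 CPM in vehicle and 0.576 ± 0.258 CPM in OxPAPC libraries. Of the cardiomyocyte markers, Tnnt2 (128 ± 7.28 CPM in vehicle) and Actc1 were present and Myh6, Myh7 and Ryr2 were near 0, with sums of 146 to 168 CPM in vehicle and 139.6 to 148 CPM in OxPAPC libraries. Endothelial markers summed to at most 0.253 CPM and leukocyte markers to at most 1.37 CPM in any library, and Cdh5, Kdr, Ptprc and Adgre1 had no count. Myog, Tnnt2, Col1a2 and Thy1 fell and Myod1 rose between the same groups, and the part of this in the values below was not tested.

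Most proteasome genes were modestly higher after OxPAPC. Psmd5, a chaperone of the base, went from 49.3 ± 1.49 to 100.4 ± 2.81 CPM (SD, n = 4), and Psmd11, a scaffold subunit of the lid, went from 83.7 ± 4.69 to 132 ± 3.87 CPM. All 7 alpha subunits, 5 of 6 ATPases and all 11 structural Psmd subunits rose, and the alpha-ring chaperones Psmg1 and Psmg3 fell. Among all tested genes 17.9% rose and 16.4% fell. Of the 7 standard beta subunits 4 rose and 3 did not pass the test, and their lowest log2 fold change was 0.02. Differences between the rings were not tested. In bulk RNA, fewer cells that express a gene and less RNA per cell cannot be told apart.

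Psma8 and Psmb11 did not pass the filter on low counts, and of the 49 members that passed, 31 rose and 3 fell at an adjusted p under 0.05 (edgeR's quasi-likelihood test, Benjamini-Hochberg over all 13206 genes). Over all tested genes 34.3% passed that threshold, 17.9% as higher and 16.4% as lower. A rise of at least 1.2-fold was reached by 12 members, against 8.66% of all genes, and a fall of that size by 3 members, against 9.78%. In 31 members every OxPAPC library lay above every vehicle library, as it did in 16.8% of all genes, and in 4 members every OxPAPC library lay below, as in 15.6%. The median log2 fold change, OxPAPC over vehicle, was 0.15 over the members and 0.0022 over all tested genes. Without OxPAPC 23 the count of members that fell was 1, since Psmg3 and Psmc3ip then missed the threshold.

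The members that rose were Psma1 to Psma7, Psmb1, Psmb3, Psmb6, Psmb7, Psmc1, Psmc2, Psmc4, Psmc5, Psmc6, Psme3, Psme4 and every tested Psmd gene other than Psmd10. Those that fell were Psmg1, Psmg3 and Psmc3ip. The 15 members that passed neither way were Psmb2, Psmb4, Psmb5, Psmb8, Psmb9, Psmb10, Psmc3, Psmd10, Psmg2, Psmg4, Pomp, Psme1, Psme2, Psmf1 and Psme3ip1. Psma8, a testis form of an alpha subunit, and Psmb11, a thymus form of a beta subunit, were nearly absent. Psma8 had 19 counts over the vehicle libraries and 10 over the OxPAPC libraries, and Psmb11 had 14 and 6.

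**Figure D1:**
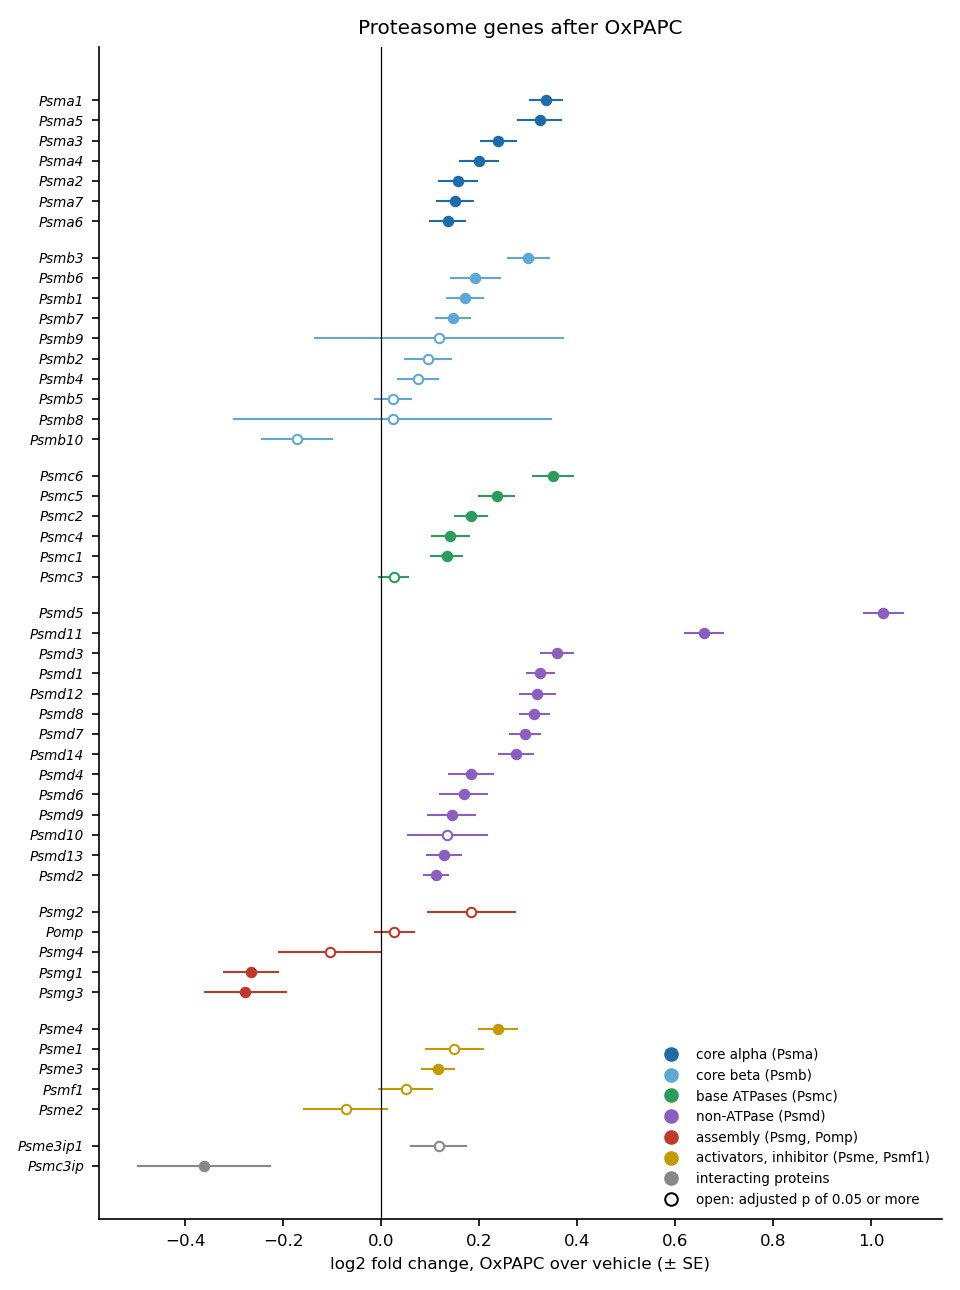
Log2 fold change of OxPAPC over vehicle (x axis, points with SE bars) for the 49 tested members, ordered within each kind of subunit (y axis) and coloured by it. Filled points passed the adjusted p threshold of 0.05 and open points did not; Psmd5 at 1.02 and Psmd11 at 0.66 lie right of all others, and the filled points left of 0 are Psmg1, Psmg3 and Psmc3ip.

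Promoter sequences were at hand for 46 of the 51 members, as RefSeq windows of 300 bases on the assembly GRCr8, from 250 bases before to 50 bases after the annotated gene start. Psma7, Psmb11, Psmd6, Psmd12 and Psmd14 had no window. Each window was searched on both strands for TGACNNNGC, the core of the antioxidant response element that NRF2 and NRF1 bind with small MAF proteins. A match lay in 8 of 46 member windows (17.4%), in 14.3% of the windows of all tested genes and in 12.2% of all 27457 windows. The 10 matches in these 8 promoters are shown because the members that hold them include Psmb5 and Psmb2, which did not pass the test, beside Psma3, Psmb6, Psmd1, Psmd3, Psmd9 and Psme4, which rose. Capitals mark the 9 bases of the motif, and each stretch is written 5′ to 3′ along the strand that holds it, with 10 bases on either side.
Psma3 (chr6:95219727-95219755, minus strand): ctcatggtgcTGACCCGGCaggccacaga
Psmb2 (chr5:144254980-144255008, plus strand): cccgcgccaaTGACCGGGCggtcgcatat
Psmb5 (chr15:32047421-32047449, minus strand): cgtgaagctgTGACGTCGCggcgttgccc
Psmb6 (chr10:55737854-55737882, plus strand): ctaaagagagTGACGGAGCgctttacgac
Psmd1 (chr9:94157796-94157824, plus strand): accagatctaTGACCTCGCgagaattata
Psmd1 (chr9:94157983-94158011, plus strand): gtgaggggacTGACTGAGCagcgcacccg
Psmd3 (chr10:84139941-84139969, minus strand): ggccgcacgaTGACCGAGCagctgcaaac
Psmd9 (chr12:39018370-39018398, plus strand): ggttttcagaTGACCCGGCagagctaagt
Psmd9 (chr12:39018323-39018351, minus strand): gagtttccggTGACCTCGCcccacctcca
Psme4 (chr14:108706578-108706606, minus strand): ggcgaggaggTGACCCAGCggctttctcc
Matches began between 165 bases before the start, in Psmd1, and 23 bases after it, in the same promoter. In Psmb2 the match shared 1 base with a CCAAT box and 4 bases with a GGGCGG box, and no other match overlapped one of the other motifs searched. Among members that rose, 6 of 27 windows held a match (22.2%), and among members that did not pass the test 2 of 15 did (13.3%). A match is a description of letters, and no match says only that these letters are not in this window.

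The other motifs searched were CCAAT, the box of NF-Y, GGGCGG, the box of SP factors, and TTCNNGAA, a part of the heat shock element. CCAAT lay in 23 of 46 member windows and in 38.2% of the windows of tested genes. GGGCGG lay in 69.6% of member windows and 60.9% of those of tested genes. It lay in all 7 alpha windows, Psma8 included, and likewise in all 4 Psmg and all 4 Psme windows. By call, it lay in 20 of 27 windows of members that rose, 3 of 3 that fell and 8 of 15 that did not pass. TTCNNGAA lay in 6.52% of member windows, in 6.88% of those of tested genes and in 0 of the 27 windows of members that rose. The whole windows of Psmd5 and Psmd11, the Psmd genes with the largest rise, and of Psmg1, which fell, are given to set both directions side by side, with CCAAT and GGGCGG on either strand in capitals.
Psmd5 (chr3:38548441-38548740, minus strand): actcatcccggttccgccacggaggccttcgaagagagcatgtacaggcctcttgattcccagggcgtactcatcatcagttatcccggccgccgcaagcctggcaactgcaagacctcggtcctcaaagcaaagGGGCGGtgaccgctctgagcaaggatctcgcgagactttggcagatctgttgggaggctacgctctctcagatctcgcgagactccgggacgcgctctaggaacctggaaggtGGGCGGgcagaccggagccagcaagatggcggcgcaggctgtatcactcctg
Psmd11 (chr10:65932093-65932392, plus strand): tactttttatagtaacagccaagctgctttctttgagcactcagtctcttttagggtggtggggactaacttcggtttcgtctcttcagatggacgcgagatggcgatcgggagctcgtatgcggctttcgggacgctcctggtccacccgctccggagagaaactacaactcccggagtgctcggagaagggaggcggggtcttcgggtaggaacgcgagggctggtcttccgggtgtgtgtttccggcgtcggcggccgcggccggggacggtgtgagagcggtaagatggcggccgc
Psmg1 (chr11:48754991-48755290, minus strand): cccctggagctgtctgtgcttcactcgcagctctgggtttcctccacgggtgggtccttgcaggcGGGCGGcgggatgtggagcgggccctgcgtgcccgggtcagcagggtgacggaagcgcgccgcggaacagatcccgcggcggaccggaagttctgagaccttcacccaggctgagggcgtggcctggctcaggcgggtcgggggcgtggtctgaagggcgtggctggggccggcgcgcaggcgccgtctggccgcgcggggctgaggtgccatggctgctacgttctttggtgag
The window of Psmd5 held 2 GGGCGG boxes, that of Psmg1 held 1 and that of Psmd11 held none, and CCAAT and TGACNNNGC lay in none of these windows.

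Psma genes encode the outer rings of the core, whose tails close the entry pore, and all 7 tested members rose. Their median log2 fold change was 0.20, and the groups overlapped in none of them. Psma1 showed the largest change, with 103, 106, 104 and 103 CPM in vehicle 1, 8, 15 and 22 and 130.1, 128, 132 and 134 CPM in OxPAPC 2, 9, 16 and 23. All OxPAPC libraries of Psma1 lay above all vehicle libraries, and its log2 fold change was 0.34 ± 0.03 (SE). The smallest change was that of Psma6, with 91.1, 94.4, 90.9 and 89.5 CPM in the vehicle libraries and 104, 101, 96.6 and 101 CPM in the OxPAPC libraries, in the same order of samples. These groups did not overlap either, although OxPAPC 16 came close to vehicle 8, and the log2 fold change was 0.14 ± 0.04. Annotated copies of Psma6 held counts equal to 3.12% of its own, so its level is uncertain. Between these ends lay Psma5 (0.32), Psma3 (0.24), Psma4 (0.20), Psma2 (0.16) and Psma7 (0.15), all as log2 fold changes.

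In the inner rings of the core, made by Psmb genes, 4 of 10 tested members rose and 6 passed neither way. The log2 fold change was positive in 9 of these 10. Without the immune forms, 4 of the 7 standard beta genes rose and 3 did not pass. Of the catalytic subunits of the standard particle, Psmb6 and Psmb7 rose and Psmb5 did not pass; the difference between them was not tested. Psmb5, which carries the chymotrypsin-like site, stood at 88.5, 85.3, 88.6 and 89.7 CPM in the vehicle libraries and 92.5, 87.1, 86.7 and 91.4 CPM in the OxPAPC libraries. Its groups overlapped, and the log2 fold change was 0.02 ± 0.04, which turned to -0.01 when libraries were scaled by their upper quartile instead of by TMM. Psmb6, the subunit with the caspase-like site, stood at 38.1, 40.9, 39.9 and 43.3 CPM in vehicle and 45.8, 46.0, 45.3 and 48.0 CPM in OxPAPC libraries. Here every OxPAPC library lay above every vehicle library, with a log2 fold change of 0.19 ± 0.05; its annotated copies held counts equal to 1.69% of its own. Psmb7, which provides the trypsin-like site, stood at 123, 120.2, 119 and 119 CPM in vehicle and 138, 137, 129 and 129 CPM in OxPAPC libraries. Its groups were apart as well, and its log2 fold change was 0.15 ± 0.04.

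Among the beta subunits without a catalytic site, Psmb3 had the largest and Psmb4 the smallest log2 fold change. Psmb3 was measured at 64.9, 63.1, 63.5 and 60.5 CPM in vehicle and 76.9, 81.5, 73.3 and 78.4 CPM in OxPAPC libraries, with no overlap and a log2 fold change of 0.30 ± 0.04. Psmb4 was measured at 102, 94.0, 109 and 99.6 CPM in vehicle and 108, 109.6, 107 and 101 CPM in OxPAPC libraries. Vehicle 15 was higher than 3 of the 4 OxPAPC libraries of Psmb4, and the log2 fold change of 0.07 ± 0.04 did not pass the test. Psmb1 rose (0.17 ± 0.04), and Psmb2 did not pass (0.09 ± 0.05).

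The immune forms of the catalytic subunits were scarce, and none of them rose. Psmb8, the immune counterpart of Psmb5, gave 1.28, 0.834, 1.08 and 0.643 CPM in vehicle and 1.13, 0.789, 1.39 and 0.650 CPM in OxPAPC libraries. Psmb9, the counterpart of Psmb6, gave 1.98, 1.297, 1.25 and 1.46 CPM in vehicle and 1.598, 1.37, 2.22 and 1.35 CPM in OxPAPC libraries. At about 1 CPM the libraries of one group spread widely, the groups overlapped fully, and the SE of the log2 fold change was 0.33 for Psmb8 and 0.25 for Psmb9, so a change of the size of the family's median, 0.15, was not detectable at this depth. Both estimates, 0.02 and 0.12, took the other sign when OxPAPC 16 was left out, at -0.18 and -0.06.

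Psmb10, the counterpart of Psmb7, was the most abundant immune form, at 18.8, 18.1, 16.6 and 16.9 CPM in vehicle and 15.7, 15.6, 15.7 and 15.6 CPM in OxPAPC libraries. All its OxPAPC libraries lay below all vehicle libraries, yet the log2 fold change of -0.17 ± 0.07 did not pass, with an edgeR adjusted p of 0.0770. Over the alternatives with edgeR, DESeq2 and limma its adjusted p ran from 0.00651 to 0.201. Psmb10 passed as lower with upper-quartile scaling and in the fits on log2 of FPKM, the deposited level per gene length and library size. In FPKM, Psmb8, Psmb9 and Psmb10 together made up 7.32, 6.81, 6.38 and 6.29% of the sum of the catalytic subunits in the vehicle libraries. The same share was 5.60, 5.56, 6.18 and 5.51% in the OxPAPC libraries. The highest OxPAPC value, in OxPAPC 16, lay just under the lowest vehicle value, in vehicle 22. Psmb10 stood at 14.2 ± 0.601% of the Psmb7 FPKM in vehicle and 11.4 ± 0.420% in OxPAPC libraries (SD, n = 4), and Psmb8 stood at 0.855 ± 0.247% and 0.872 ± 0.308% of Psmb5.

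**Figure D2:**
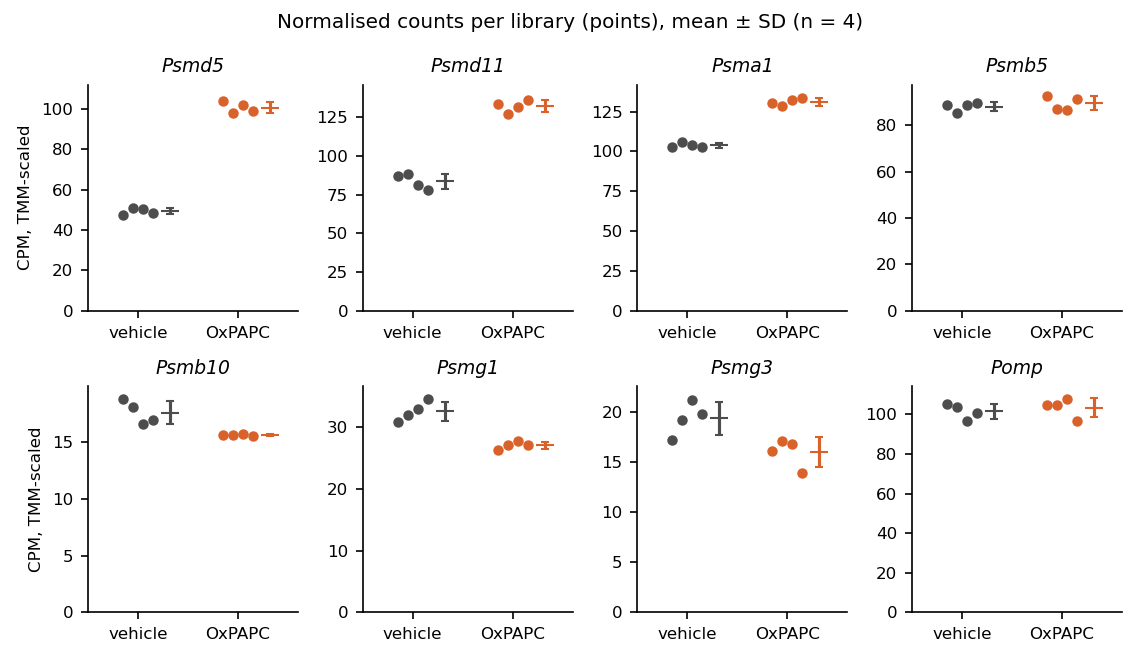
Normalised counts in CPM (y axis, from 0) of 8 members in each vehicle library (grey points) and OxPAPC library (orange points), with the mean and SD bar of each group of 4 beside them. The groups lie apart for Psmd5, Psmd11, Psma1, Psmb10, Psmg1 and Psmg3, and overlap for Psmb5 and Pomp.

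The ATPases of the base, which thread the unfolded substrate into the core, rose in 5 of 6 cases, with a median log2 fold change of 0.16. Psmc6 showed the largest change, from 74.1, 72.9, 77.3 and 79.4 CPM in the vehicle libraries to 101, 99.7, 93.8 and 92.6 CPM in the OxPAPC libraries. No library of one group reached the other, and the log2 fold change was 0.35 ± 0.04. Psmc3, of the same ring, stood at 209, 205, 204 and 196 CPM in vehicle and 211, 199.8, 209 and 208 CPM in OxPAPC libraries. Those groups overlapped, and the log2 fold change of 0.02 ± 0.03 did not pass and turned to -0.01 with upper-quartile scaling. The others were Psmc5 (0.24 ± 0.04), Psmc2 (0.18 ± 0.04), Psmc4 (0.14 ± 0.04) and Psmc1 (0.13 ± 0.03). Psmc4 missed the threshold in the fit on log2 FPKM without a filter on low values.

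Psmd genes, the non-ATPase part of the cap, rose in 13 of 14 cases and had the highest median log2 fold change of the kinds of subunit, 0.28. Psmd5, at chr3:18133715-18151000 in the deposited table, whose build is not stated, encodes a chaperone that holds ATPases of the base before they join the particle. Its levels were 47.6, 50.7, 50.4 and 48.5 CPM in the vehicle libraries and 104, 97.7, 102 and 98.6 CPM in the OxPAPC libraries. The lowest OxPAPC library of Psmd5, at 97.7 CPM, lay far above the highest vehicle library, at 50.7 CPM, and the log2 fold change was 1.02 ± 0.04, a rise of 103%. No other gene of the table overlaps Psmd5. The other base chaperones had smaller values: Psmd9 rose by a log2 fold change of 0.14 ± 0.05, and Psmd10 did not pass at 0.13 ± 0.08. Psmd9 missed the threshold in 13 of 20 alternatives, among them the leave-outs of vehicle 1, vehicle 15, vehicle 22, OxPAPC 9 and OxPAPC 23, with adjusted p-values up to 0.163 over all alternatives, those with DESeq2 and limma included.

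All 8 Psmd subunits of the lid rose, and their median log2 fold change was 0.30. Sem1, a further lid subunit, was read with the partners, was named after its values were seen, and did not pass (-0.09 ± 0.05). Psmd11, at chr10:65433853-65479774 in the deposited table, had 86.8, 88.2, 81.4 and 78.2 CPM in the vehicle libraries and 133, 127, 132 and 136 CPM in the OxPAPC libraries. The lowest OxPAPC library of Psmd11 was at 127 CPM and the highest vehicle library at 88.2 CPM, with a log2 fold change of 0.66 ± 0.04. A noncoding RNA on the other strand overlaps Psmd11 by 2544 bases, and it had 45 counts in all libraries against 15392 for Psmd11. Psmd14, the enzyme that cuts ubiquitin chains from the substrate, rose from 82.4 ± 1.76 to 99.7 ± 2.20 CPM, a log2 fold change of 0.28 ± 0.04. Its partner in that reaction, Psmd7, rose by 0.29 ± 0.03 on the same scale. Psmd3 (0.36 ± 0.03), Psmd12 (0.32 ± 0.04) and Psmd8 (0.31 ± 0.03) moved about as much, and Psmd6 (0.17 ± 0.05) and Psmd13 (0.13 ± 0.04) less. Psmd13 was the called member whose groups overlapped, as OxPAPC 16 at 146 CPM lay below vehicle 22 at 147 CPM. Psmd13 missed the threshold with upper-quartile scaling, on log2 FPKM, and without vehicle 15 and OxPAPC 23 together (edgeR adjusted p = 0.0656), and its adjusted p ranged from 0.00598 to 0.124 over all alternatives, DESeq2 and limma included. Psmd6 did so without OxPAPC 9 (edgeR adjusted p = 0.0543) or vehicle 15 (0.0506), and over the same alternatives its adjusted p ranged from 0.00567 to 0.0808.

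The base also holds the large scaffolds Psmd1 and Psmd2 and the ubiquitin receptor Psmd4, and all 3 rose. Psmd2 had the smallest log2 fold change of the Psmd genes, 0.11 ± 0.03, and the highest level. It stood at 393, 393, 399 and 385 CPM in vehicle and 424, 417, 422 and 433 CPM in OxPAPC libraries, and these narrow groups did not overlap. Psmd1 rose from 197 ± 3.99 to 247 ± 2.50 CPM, a log2 fold change of 0.32 ± 0.03. Psmd4 rose by 0.18 ± 0.05 on the log2 scale. Noncoding RNAs on the other strand overlap Psmd4 by 935 and 6091 bases, and they had 186 and 57 counts in all libraries against 9293 for Psmd4.

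None of the chaperones that assemble the core rose. Psmg1 and Psmg2 form one pair of chaperones for the alpha ring, Psmg3 and Psmg4 the other, and Pomp guides the beta subunits onto it. Of the 4 Psmg genes, 2 fell and none rose, with a median log2 fold change of -0.19. Psmg1 fell from 30.9, 32.1, 32.9 and 34.5 CPM in the vehicle libraries to 26.4, 27.2, 27.7 and 27.1 CPM in the OxPAPC libraries, without overlap, and its log2 fold change was -0.27 ± 0.06. Psmg3 fell from 17.3, 19.3, 21.2 and 19.9 CPM to 16.2, 17.2, 16.9 and 13.9 CPM, where OxPAPC 9 at 17.2 CPM lay just under vehicle 1 at 17.3 CPM. Its log2 fold change was -0.28 ± 0.08, and without OxPAPC 23 it was -0.21 and did not pass (edgeR adjusted p = 0.0565), and over the alternatives with edgeR, DESeq2 and limma its adjusted p ranged from 0.00250 to 0.145.

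Psmg2 had the highest log2 fold change of the Psmg genes, 0.18 ± 0.09, and did not pass. Its levels were 12.9, 11.7, 13.2 and 12.97 CPM in vehicle and 16.1, 13.99, 12.4 and 15.1 CPM in OxPAPC libraries, and OxPAPC 16 lay among the vehicle libraries. Psmg4 did not pass either (-0.10 ± 0.11), and its annotated copies held counts equal to 1.23% of its own. Pomp stood at 105, 104, 96.8 and 101 CPM in vehicle and 105, 105, 108 and 96.6 CPM in OxPAPC libraries. Its groups overlapped over most of their range, and the log2 fold change of 0.03 ± 0.04 turned to -0.01 with upper-quartile scaling.

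Of the activators, which open the core in place of the 19S cap, 2 of 4 Psme genes rose. Psme4, the large activator PA200, showed the largest change, from 146, 161, 145 and 152 CPM in the vehicle libraries to 182, 184, 181 and 165 CPM in the OxPAPC libraries. OxPAPC 23 was the lowest library of its group and still lay above vehicle 8, and the log2 fold change was 0.24 ± 0.04. Psme3, the nuclear form of the PA28 activator, rose by 0.12 ± 0.03 on the log2 scale, but missed the threshold with upper-quartile scaling and without a filter on low counts, which left 1 activator that rose. Psme1 and Psme2 form the PA28 ring induced by interferon. Psme2 stood at 19.8, 18.6, 16.9 and 15.9 CPM in vehicle and 16.4, 15.5, 16.5 and 19.3 CPM in OxPAPC libraries, with overlap and a log2 fold change of -0.07 ± 0.09. Annotated copies of Psme2 held counts equal to 12.7% of its own, so its level is uncertain. Psme1 lay higher in every OxPAPC library, with a log2 fold change of 0.15 ± 0.06 that did not pass (edgeR adjusted p = 0.0597), and over the alternatives with edgeR, DESeq2 and limma its adjusted p ranged from 0.0456 to 0.172. It passed without OxPAPC 16, without OxPAPC 23, and without vehicle 15 and OxPAPC 23 together. Psmf1, the inhibitor PI31, did not pass (0.05 ± 0.06).

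Psmc3ip, whose product serves in meiotic recombination, fell from 5.47 ± 0.507 to 4.26 ± 0.373 CPM, a log2 fold change of -0.36 ± 0.14. It missed the threshold in 9 of 20 alternatives, among them the leave-out of every library other than vehicle 8 and OxPAPC 16. Psmc3ip shares 46 bases with Mlx on the other strand, which had 7339 counts against 696 for Psmc3ip and a log2 fold change of 0.17. The sources do not say if counting used strand, so reads of this pair may not have been separated. Psme3ip1 did not pass (0.12 ± 0.06). It shares 1616 bases with Rspry1 on the other strand, which had 4320 counts against 5411 for Psme3ip1, so the same doubt holds there.

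Levels of different subunits were compared per length, in FPKM. Adrm1 and Sem1, which are also parts of the 26S particle, stand on the partner list and were left out here. The 31 subunits of the particle that were compared were 7 alpha, 7 standard beta, 6 ATPases and 11 Psmd subunits. Their transcripts ranged in vehicle from 22.4 ± 1.19 FPKM for Psmd11 to 137 ± 2.15 FPKM for Psmd2 (SD, n = 4), a ratio of 6.13. After OxPAPC the same genes stood at the ends, with 34.7 ± 1.07 and 145 ± 2.66 FPKM, and the ratio was 4.19. Next above Psmd11 in vehicle stood Psmc6 (30.1 ± 1.26 FPKM), Psmd6 (34.1 ± 1.94 FPKM) and Psmd12 (40.4 ± 0.842 FPKM). In the order of vehicle levels, the libraries of neighbouring genes did not overlap in 10 of 30 neighbours, among them the steps from Psmd11 up to Psmd3 and the last step to Psmd2, and overlapped in the other 20. At the upper end Psmb7 (125 ± 1.81 FPKM), Psmc3 (125 ± 3.12 FPKM) and Psma7 (122 ± 5.79 FPKM) did not differ beyond their spread.

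Of these 31 genes, 27 rose and 4 did not pass (Psmb2, Psmb4, Psmb5 and Psmc3). The SD of log2 FPKM across the 31 genes was computed within each library. It was 0.632 to 0.659 in the vehicle libraries and 0.566 to 0.571 in the OxPAPC libraries. The 31 transcripts thus lay closer together in each OxPAPC library. Without Psmd11 the same SD was 0.564 to 0.589 in vehicle and 0.525 to 0.538 in OxPAPC libraries, and the groups still did not overlap. The 10 subunits lowest in vehicle FPKM, from 22.4 to 55.9, had a median log2 fold change of 0.30 and all rose. The 10 highest, from 91.5 to 137 FPKM, had a median of 0.13, and 7 rose. Across the 31 genes, Spearman's rho between vehicle FPKM and log2 fold change was -0.66, and -0.63 without Psmd11, where both measures contain the vehicle libraries. With CPM in place of FPKM rho was -0.16, with gene length it was 0.37, and over all 13206 tested genes rho between vehicle CPM per kilobase and log2 fold change was 0.05. Over all 49 tested members rho with log2 fold change was positive, at 0.12 for vehicle FPKM and 0.36 for vehicle CPM. The negative relation was thus that of the 31 subunits, not of the whole family. These are descriptions across genes, which are not independent replicates, and the part of gene length in them was not tested.

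**Figure D3:**
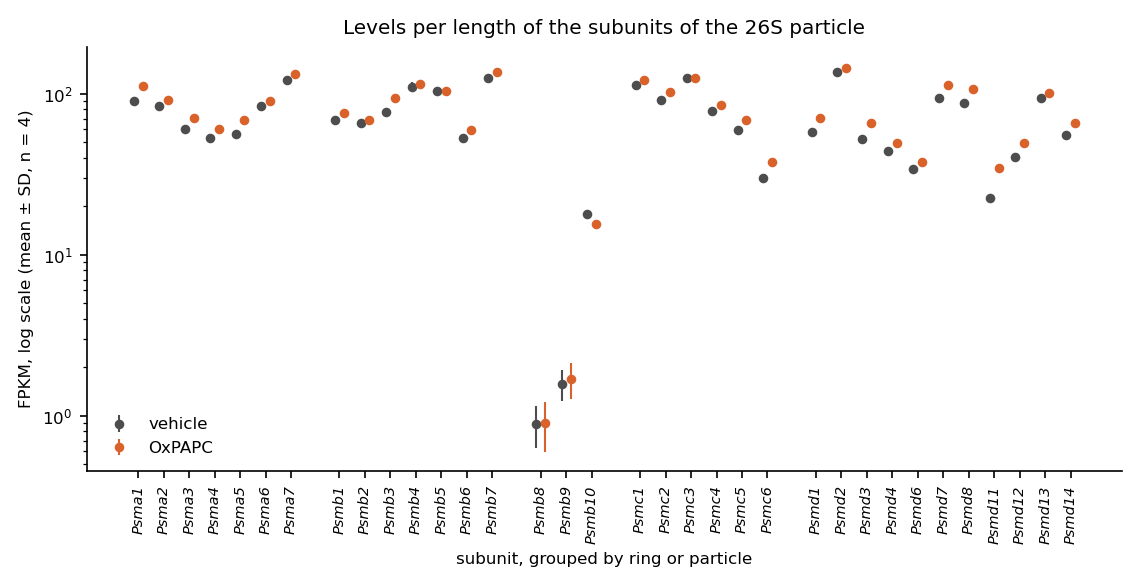
Mean FPKM with SD bars (y axis, log scale, n = 4) of 31 subunits of the 26S particle and the 3 immune beta subunits. Vehicle libraries are grey and OxPAPC libraries orange, and subunits are grouped by ring or particle (x axis). The immune forms Psmb8, Psmb9 and Psmb10 lie below all others, and the shift from grey to orange is widest for Psmd11, the lowest of the 31.

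Outside the particle, Pomp had the highest FPKM of all members, 164 ± 5.43 in vehicle and 164 ± 7.38 in OxPAPC libraries. Other chaperones and activators were lower per length, with Psmd5 at 24.4 ± 0.763 FPKM, Psmg1 at 24.3 ± 1.19 FPKM and Psme4 at 12.2 ± 0.592 FPKM in vehicle. After OxPAPC, Psmd5 stood at 48.9 ± 1.23 FPKM, which placed it among the structural subunits Psmd12 (49.4 ± 0.915 FPKM) and Psmd4 (49.3 ± 2.83 FPKM). Replicates of the members varied little: the coefficient of variation had a median of 3.02% in vehicle and 3.47% in OxPAPC libraries.

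Summed over the 49 proteasome genes (all members except Psmc3ip and Psme3ip1), transcripts took 0.410, 0.409, 0.425 and 0.410% of all counts in the vehicle libraries and 0.470, 0.473, 0.468 and 0.478% in the OxPAPC libraries. Each OxPAPC library lay above each vehicle library, and the summed CPM differed by a ratio of 1.15. By kind of subunit, the ratio was 1.16 for the alpha genes, 1.09 for the beta genes, 1.11 for the ATPases, 1.22 for the Psmd genes and 1.117 for the activators with Psmf1. The lid and assembly group was formed by name from all Psmd and Psmg genes, so it also holds the base subunits Psmd1, Psmd2 and Psmd4. This group went from 1677 ± 9.49 to 2021 ± 25.5 CPM (SD, n = 4). Members are mostly short genes: 35 of the 49 tested lay among the 2642 genes of 60 to 1691 bases, of which 13.7% rose, and 19 of those 35 members rose.

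**Figure D4:**
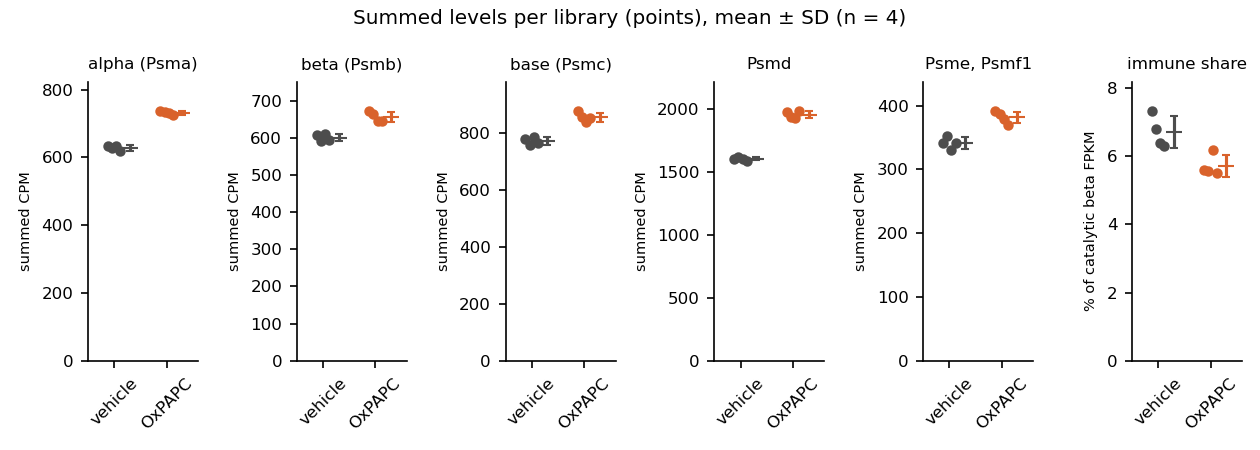
Summed CPM per library (y axes, from 0) of the alpha, beta, base, Psmd and activator genes, and the share of immune forms in the FPKM of the catalytic beta subunits (last panel, percent), with points for libraries and the mean and SD of each group of 4. In each panel the vehicle and OxPAPC libraries lie apart, higher after OxPAPC in the sums and lower in the immune share.

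A list of 21 proteasome partners, genes for ubiquitin receptors, shuttles, attached enzymes and regulators, was read beside the members. Of these, 13 rose (61.9%), 2 fell (9.52%) and 6 did not pass, beside 17.9% higher and 16.4% lower among all tested genes, with a median log2 fold change of 0.19. Ecpas, named for an adaptor that binds the 26S particle, has the biotype misc_RNA in the deposited table, while all members are protein-coding. It had 143, 143, 135 and 136 CPM in vehicle and 213, 218, 213 and 204 CPM in OxPAPC libraries. No library of one group came near the other, and its log2 fold change of 0.61 ± 0.03 was about that of Psmd11. The unfoldase Vcp (0.31 ± 0.03) and its cofactors Nploc4 (0.53 ± 0.04) and Ufd1 (0.19 ± 0.04) rose. So did Zfand5 (0.52 ± 0.03), which stimulates the 26S particle, the ubiquitin receptor Adrm1 (0.49 ± 0.05) and the deubiquitinase Usp14 (0.38 ± 0.05). Smaller rises were found for Txnl1 (0.26), Akirin2 (0.23), the protease Ddi2 (0.22), and the shuttles Ubqln1 (0.20) and Rad23b (0.19), all as log2 fold changes.

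The genes of the list that fell were Ngly1 (-0.23 ± 0.06), which removes sugar chains from proteins, and the ubiquitin ligase Ube3c (-0.10 ± 0.04), both named after their values were seen. Ube3c missed the threshold without OxPAPC 2 (-0.10), without OxPAPC 23 (-0.08), without vehicle 8 (-0.10), without vehicle 22 (-0.10) and with a gene length offset (-0.09), which left 1 gene that fell. Nfe2l1, the gene of the transcription factor NRF1 and likewise named after its values were seen, stood at 424, 422, 418 and 418 CPM in vehicle and 435, 423, 439 and 419 CPM in OxPAPC libraries. Its groups overlapped, and its log2 fold change of 0.03 ± 0.03 did not pass.

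**Figure D5:**
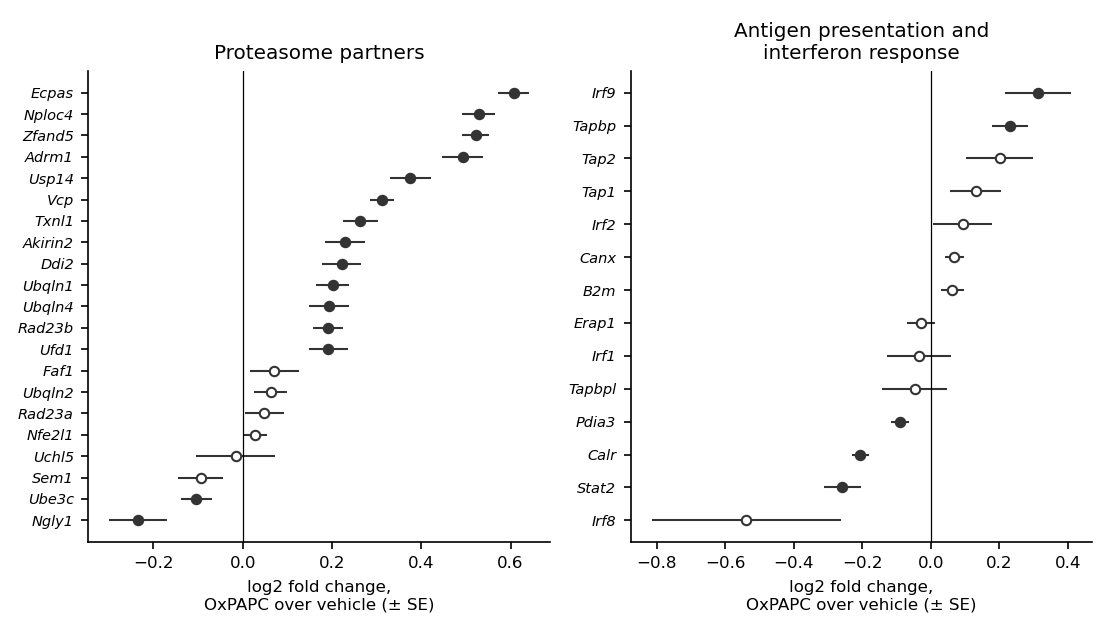
Log2 fold change of OxPAPC over vehicle (x axes, points with SE bars) for 21 proteasome partners (left) and 14 tested genes of antigen presentation and interferon response (right), each ordered by its value on the y axis. Filled points passed the adjusted p threshold of 0.05 and open points did not; Ecpas at 0.61 lies farthest from 0 on the left, and on the right the filled points are Irf9, Tapbp, Pdia3, Calr and Stat2.

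Immune forms of the proteasome belong to antigen presentation, and 15 genes of that process and of interferon response were read beside them. Of the 14 that passed the filter, 2 rose (14.3%), 3 fell (21.4%) and 9 did not pass, beside 17.9% higher and 16.4% lower among all tested genes, with a median log2 fold change of 0.02; Nlrc5 did not pass the filter. Stat2 (-0.26 ± 0.05), a transcription factor of the interferon response, fell from 41.1 ± 2.06 to 34.3 ± 1.18 CPM (SD, n = 4), and its groups did not overlap. Irf9 (0.31 ± 0.10), which joins Stat2 on DNA, rose from 11.9 ± 1.48 to 14.8 ± 1.27 CPM, and its groups overlapped. Of the chaperones of peptide loading, Calr (-0.21 ± 0.02) and Pdia3 (-0.09 ± 0.03) fell. Canx, named after its values were seen, had a positive log2 fold change (0.07 ± 0.03) and did not pass (edgeR adjusted p = 0.0632). Tapbp (0.23 ± 0.05), which bridges class I molecules to the peptide transporter, rose. The count that rose was 1 without vehicle 1 or without OxPAPC 9, where Irf9 missed the threshold, 4 without OxPAPC 23, and 5 without vehicle 15 and OxPAPC 23 together.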

How the data were processed

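The authors deposited whole-number read counts per gene, not normalized, and FPKM values of the same genes. The submitters' processing notes name featureCounts 1.5.0-p3, HISAT2 2.0.5 and StringTie 1.3.3b without roles, and the build was not given in the sources used here. Gene coordinates are those of the deposited table, with chromosome numbers by gene identifier from a RefSeq table of GRCr8 (91.9% of identifiers). Per the labels' protocols, directional and non-directional libraries were made. The deposited FPKM equalled the count per kilobase and per M counts times 1 factor per library (0.987 to 1.02).

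Counts were tested with edgeR 4.0.16 (R 4.3.3): filterByExpr (10 counts at the median library size in 4 libraries, 15 in total), TMM factors of 0.976 to 1.03, the robust quasi-likelihood F test, and Benjamini-Hochberg adjustment over 13206 genes. CPM are TMM-scaled; SE is the absolute log2 fold change over the square root of F. The steps were tested on simulated data. Library pairs had a chi-square per degree of freedom of 2.23 to 9.50 within and 23.1 to 35.0 between groups, so no library repeated another. Alternatives used DESeq2 1.42.0, limma 3.58.1, other scalings and filters, log2(FPKM + 1), log2(FPKM + 0.1), leave-outs and, added after seeing the data, a gene length offset.

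Members, lists and tests were chosen with earlier results of these data known. Library values are printed for the catalytic beta subunits, Pomp and, per kind of subunit, the largest and smallest signed log2 fold change; members not passing or falling are named, with up to 12 called genes per list by smallest p. Paaf1, also on the partner list, matched no symbol and was not analysed here. An item of the antigen list is not reported here, and the list's values leave it out. Library values of Psmd11, Psmg1, Ecpas and Nfe2l1 were added after they were seen.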

Additional observations from a re-analysis of the deposited data

Results flagged for a closer look

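In groups of 4 libraries, a library that stood apart from the other 3 by Dixon's criterion at the 95% level was found in 7 of 102 groups tested, where chance gives about 1 in 20. OxPAPC 23 was low for Psme4, at 165 CPM against 180.6 to 184 CPM in the other OxPAPC libraries, and for Psma5, at 66.8 CPM against 71.2 to 71.7 CPM. The same library was high for Psme3ip1, at 41.3 CPM against 38.4 to 38.8 CPM. Vehicle 8 was low for Psmc2, at 121 CPM against 128 to 129 CPM. OxPAPC 16 was high for Psmc3ip, at 4.82 CPM against 4.05 to 4.10 CPM, and for the immune share of the catalytic beta FPKM, at 6.18% against 5.51 to 5.60%. Vehicle 15 had the highest share of counts from proteasome genes among the vehicle libraries, 0.425% against 0.409 to 0.410%. That share is of unscaled counts. In TMM-scaled CPM the proteasome genes of vehicle 15 summed to 4138, between 4084 in vehicle 22 and 4139 in vehicle 1.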

How the results depend on the processing

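Of 34 called members, 27 kept their call in all 20 alternatives, 7 lost it in at least 1 (Psmc3ip, Psmc4, Psmd6, Psmd9, Psmd13, Psme3, Psmg3), and none changed sign; 4 uncalled members gained a call in at least 1 (Psmb4, Psmb10, Psme1, Psme3ip1). Leave-outs gave 1 to 3 members that fell, 1 to 2 in the lid and assembly group, 1 to 2 partners and, in the antigen list, 1 to 4 genes that rose; without vehicle 15 and OxPAPC 23 together these were 1 member, 1 in the lid and assembly group and 5 antigen genes. With upper-quartile scaling the median log2 fold change was 0.11 for members, 0.11 for the core and 0.12 for the base, 1 core gene fell and 1 activator rose; without a filter 1 activator rose as well. On log2(FPKM + 1), with or without a filter, the medians were 0.118 and 0.123 for members and core, on log2(FPKM + 0.1) 0.121 and 0.124, and in all of them 1 core gene fell and 1 antigen gene rose. With the length offset 1 partner fell. Uncalled genes changed sign as follows: with upper-quartile scaling Psmc3 -0.013, Psmb5 -0.014, Psmb8 -0.014 and Pomp -0.011; on log2(FPKM + 1) Psmc3 -0.0018 and Psmb5 -0.0042, unchanged without the filter; on log2(FPKM + 0.1) Psmc3 -0.0019 and Psmb5 -0.0043. Leave-outs gave -0.18 to 0.25 for Psmb8 and -0.057 to 0.28 for Psmb9. Upper-quartile scaling also changed the balance over all genes, with 40.2% of calls higher against 52.3%, and log2 FPKM gave 43.2 to 44.1%. As a share of summed FPKM the proteasome genes took 0.721% in vehicle and 0.797% in OxPAPC libraries. Of 245 vehicle levels per length recomputed, 244 moved by less than 1 SD, and Psmd8 was 86.7 as CPM per kilobase. The cause of these shifts was not tested.

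No paired analysis was possible because the groups share no replicate number. Only 4 libraries per group and 1 dose, time and cell line were measured, depth left Psmb8, Psmb9, Psma8 and Psmb11 near or below the filter, and RNA levels say nothing of protein or activity.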
